A study of Mus musculus with 8 samples.

Results

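Collagen chain genes were compared between cancers of the mouse gastric squamous-columnar junction (SCJ), where the squamous forestomach meets the glandular stomach, and control SCJ tissue. They were chosen by symbol alone (Col, a number, the letter a and a number), which took 44 of the 23361 genes in the expression table. By class, 11 encode fibrillar chains, 8 encode chains of basement membranes and 25 encode other chains. The 5 cancers carried a knock-in Lgr5-eGFP-IRES-CreERT2 allele, Trp53 loxP/loxP, Rb1 loxP/loxP and the Ai9 tdTomato reporter, and are labelled Trp53-/-Rb1-/-. Mice received 3 tamoxifen injections at 6 to 10 weeks of age, and tumors were taken no earlier than 250 days later, with their borders set by tdTomato. The 3 controls were the SCJ of wild-type stomachs of matched age, which lacked these alleles. The study injected tamoxifen into control mice of its tumor induction experiments. Whether these wild-type stomachs came from such mice is not given in the sources used here. Recombination was driven from Lgr5-expressing cells, but each tumor was ground whole, with whatever stroma and vessels it held, so more cells of a type and more RNA per cell cannot be told apart.

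Collagens are secreted or membrane proteins in which 3 chains wind into a triple helix. Fibrillar collagens (types I, II, III, V, XI, XXIV and XXVII) form the fibers of connective tissue and are made mostly by fibroblasts, whereas type IV collagen builds the sheet of the basement membrane under epithelia and around vessels. Other families coat or link fibrils, form beaded filaments or hexagonal networks, or span the cell membrane. Chains are hydroxylated and chaperoned in the endoplasmic reticulum, trimmed outside the cell and cross-linked by lysyl oxidases.

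The values are FPKM (fragments per kilobase, adjusted for the number of mapped fragments in a library) that the authors rounded to whole numbers. They summed over all genes to between 403569 and 573858 in the cancers and between 887141 and 992550 in the controls, and the depth of each library is unknown. Of the deleted genes, for which a value per gene includes exons that were not floxed, Rb1 had 4 to 6 FPKM in the cancers against 9 to 10 in the controls, and Trp53 had 12 to 30 against 16 to 19. Control tissue carried the markers of both epithelia, with squamous markers summing to between 1548 and 2586 FPKM and gastric glandular markers to between 106538 and 169500. In the cancers these sums were 0 to 1627 and 520 to 52865. Every cancer lay below every control for 6 of the 7 glandular markers, where 19.8% of all genes did. The exception was Pgc, listed at 28832, 0 and 0 FPKM in controls 1 to 3 and at 3 to 6762 in the cancers, so the controls differed among themselves. Neuroendocrine markers summed to between 7575 and 16703 FPKM in the cancers and between 120 and 181 in the controls. Cancer 5 stood apart for the collagens, as described below, and its hepatocyte markers summed to 445 FPKM against 1 to 58 in the other cancers and 1 in each control.

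Sequence upstream of 5 genes on which the results turn is shown for orientation, from RefSeq (GRCm38.p6, the same assembly as mm10), 5′ to 3′ on the strand of the gene and without bases that lie in an annotated exon. Capitals mark matches to 3 motifs, searched for on both strands. The CCAAT box is written ATTGG when it lies on the other strand. The GC box is GGGCGG, or its reverse complement. The TATA box was searched for as TATAAA. No marked matches overlapped. Col3a1 (chr1:45311288-45311537, plus strand) is the most abundant chain of the controls, Col18a1 (chr10:77166549-77166780, minus strand) a basement membrane chain that rose, and Col8a1 (chr16:57754738-57754987, minus strand) and Col10a1 (chr10:34389731-34389980, plus strand) were above 0 FPKM in cancers alone. The final stretch (chr1:82586850-82586920) is the whole gap of 71 bases between Col4a4 and Col4a3, which are transcribed away from each other and were both lower in the cancers, and it is written on the strand of Col4a4.
Col3a1: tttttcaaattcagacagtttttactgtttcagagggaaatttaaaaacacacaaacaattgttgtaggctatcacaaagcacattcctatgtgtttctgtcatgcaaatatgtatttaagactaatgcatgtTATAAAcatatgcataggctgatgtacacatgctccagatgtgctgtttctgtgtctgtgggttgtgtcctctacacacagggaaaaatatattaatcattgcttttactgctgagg
Col18a1: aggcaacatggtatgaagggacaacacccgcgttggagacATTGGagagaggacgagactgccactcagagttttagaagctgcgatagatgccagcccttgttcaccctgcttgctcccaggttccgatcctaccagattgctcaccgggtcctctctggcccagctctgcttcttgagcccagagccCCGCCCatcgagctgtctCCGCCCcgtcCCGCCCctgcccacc
Col8a1: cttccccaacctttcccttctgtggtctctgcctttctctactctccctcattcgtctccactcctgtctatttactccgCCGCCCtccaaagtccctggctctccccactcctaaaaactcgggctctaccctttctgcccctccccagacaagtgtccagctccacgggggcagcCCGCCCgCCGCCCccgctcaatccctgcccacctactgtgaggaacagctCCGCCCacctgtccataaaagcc
Col10a1: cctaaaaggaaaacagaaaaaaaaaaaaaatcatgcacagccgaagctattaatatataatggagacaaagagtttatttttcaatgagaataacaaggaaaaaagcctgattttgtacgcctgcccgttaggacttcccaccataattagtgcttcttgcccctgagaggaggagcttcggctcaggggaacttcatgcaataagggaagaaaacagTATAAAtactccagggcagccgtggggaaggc
Col4a4 to Col4a3: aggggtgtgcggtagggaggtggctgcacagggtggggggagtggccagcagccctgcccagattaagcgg

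Col10a1 has TATAAA 32 bases before its start, Col3a1 has it 117 bases before, and Col8a1 holds 4 GC boxes. The gap between Col4a4 and Col4a3 holds none of the 3 motifs. Of the 38 RefSeq windows found for 35 of the collagen genes, 57.9% had GGGCGG in the 250 bases before the start, against 32.7% of all 32851 windows. The TATA box stood in 13.2% of the collagen windows and 12.4% of all windows. The CCAAT box stood in 34.2% and 33.8%. Col4a1 and Col4a2 (chr8:11198423-11312826 and chr8:11312829-11449287 in the expression table) are also transcribed away from each other. Their RefSeq genes overlap by 22 bases, which leaves no exon-free bases next to either start.

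Summed over the collagen chains, FPKM were 433, 398, 581, 389 and 201 in cancers 1 to 5 and 104, 158 and 88 in controls 1 to 3. Every cancer lay above every control. The means were 400.4 ± 135.6 (SD, n = 5) and 116.7 ± 36.7 (SD, n = 3), a ratio of 3.43. Per 1000 FPKM of the library, collagen took between 0.451 and 1.32 in the cancers and between 0.0887 and 0.178 in the controls. Of the 44 genes, 36 reached 1 FPKM in at least 3 samples and were tested with limma on log2(FPKM + 1). With p-values adjusted over all 14357 genes tested, 14 chains were higher and 3 lower in the cancers at an adjusted p under 0.05, where 16.2% of all genes were higher and 18.3% lower. In 10 of the tested chains every cancer lay above every control, and in 1 every cancer lay below, against 14.4% and 19.8% of all genes. A chain that passed the filter through 1 group only had to differ between groups. This was so for 9 chains with no control at 1 FPKM (Col5a3, Col8a1, Col9a2, Col10a1, Col11a1, Col11a2, Col13a1, Col20a1 and Col28a1) and for 1 chain with no cancer at 1 FPKM (Col4a4), so these counts describe the genes and are not a test of the family.

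Rounding and scaling both bear on these counts. Of the 17 chains called, 5 never exceeded 1 FPKM in any sample (Col11a1, Col11a2, Col20a1, Col4a3 and Col4a4) and rest on a single step of the rounding. Among the 13 chains with a mean of at least 5 FPKM over all samples, 6 were called, all of them higher. When each library was scaled to the same sum (TPM), the median log2 difference of all genes moved from -0.04 to 0.81, 22 chains were higher and 1 was lower, and 50.0% of all genes were higher and 3.68% lower. All 14 higher chains were higher on this scale too, and 25 of the 36 tested chains lay above the shifted median. On FPKM the median log2 difference was 1.04 over the tested chains, and 0.83 over the 26 that were above 0 in both groups, where all such genes gave -0.11. The number of higher chains fell from 14 to 8 without control 1 and was 20 without cancer 5. The chains that were higher whichever sample was left out were Col4a1, Col18a1, Col12a1 and Col27a1, and 4 with no control above 0, Col8a1, Col9a2, Col11a2 and Col20a1.

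**Figure D1:**
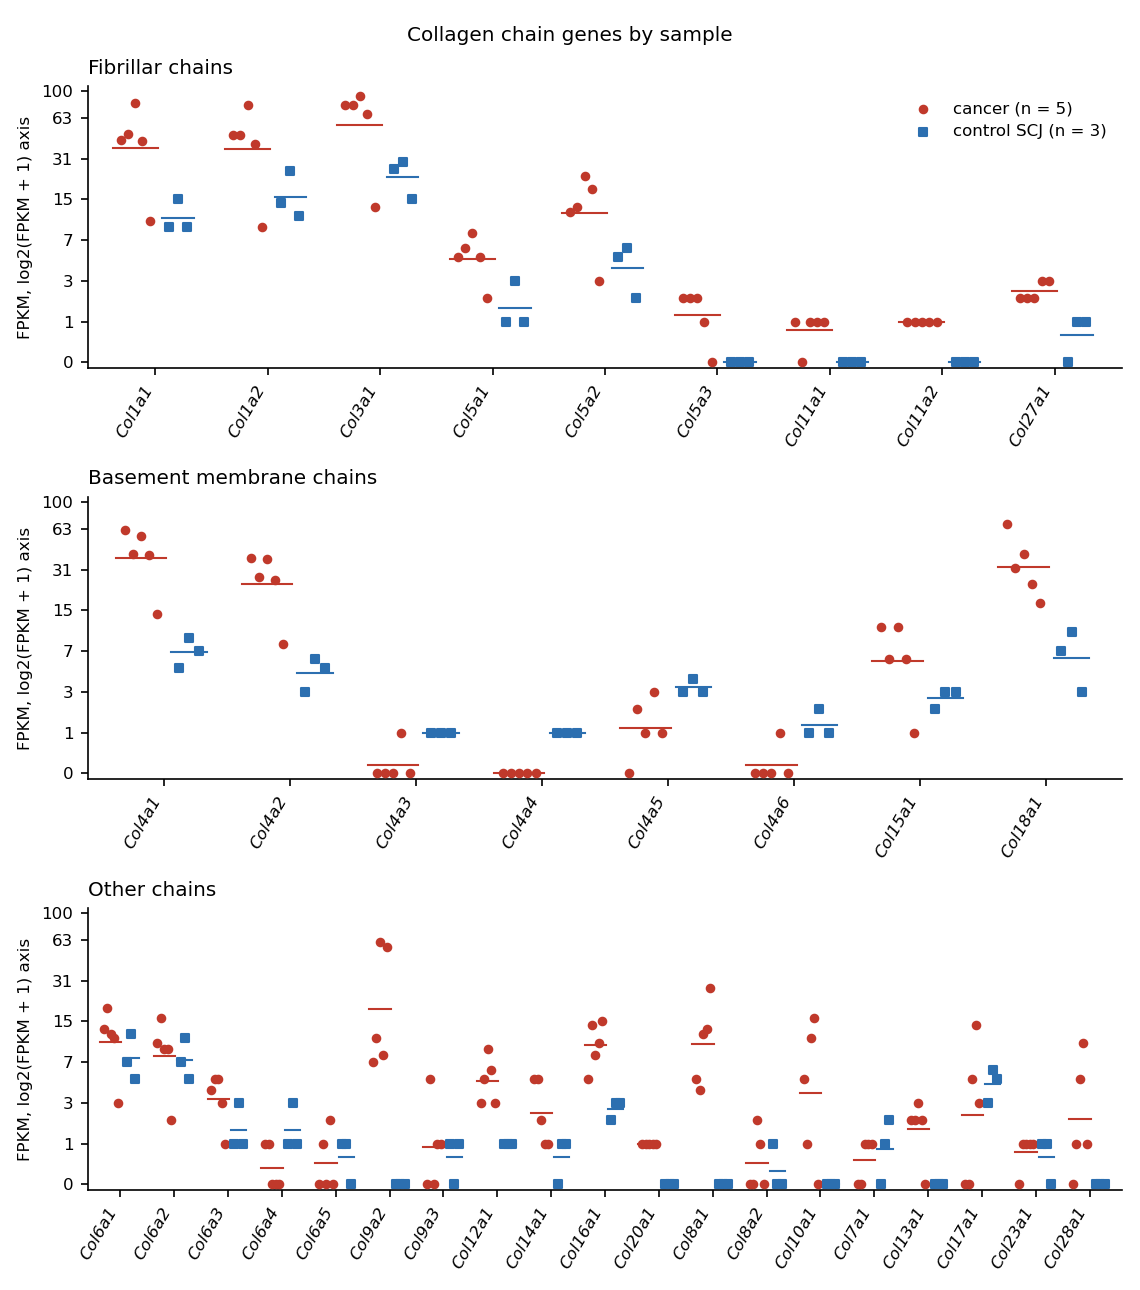
FPKM of the 36 tested collagen chain genes in each of 5 cancers (red circles, cancers 1 to 5 from left to right) and 3 control SCJ samples (blue squares), on a log2(FPKM + 1) axis, with a bar at the mean of the plotted log2 values of each group. Col4a1, Col4a2 and Col18a1 show no overlap between groups, whereas the fibrillar chains Col1a1, Col1a2 and Col3a1 have 4 cancers above the controls and cancer 5 within or below them.

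**Figure D2:**
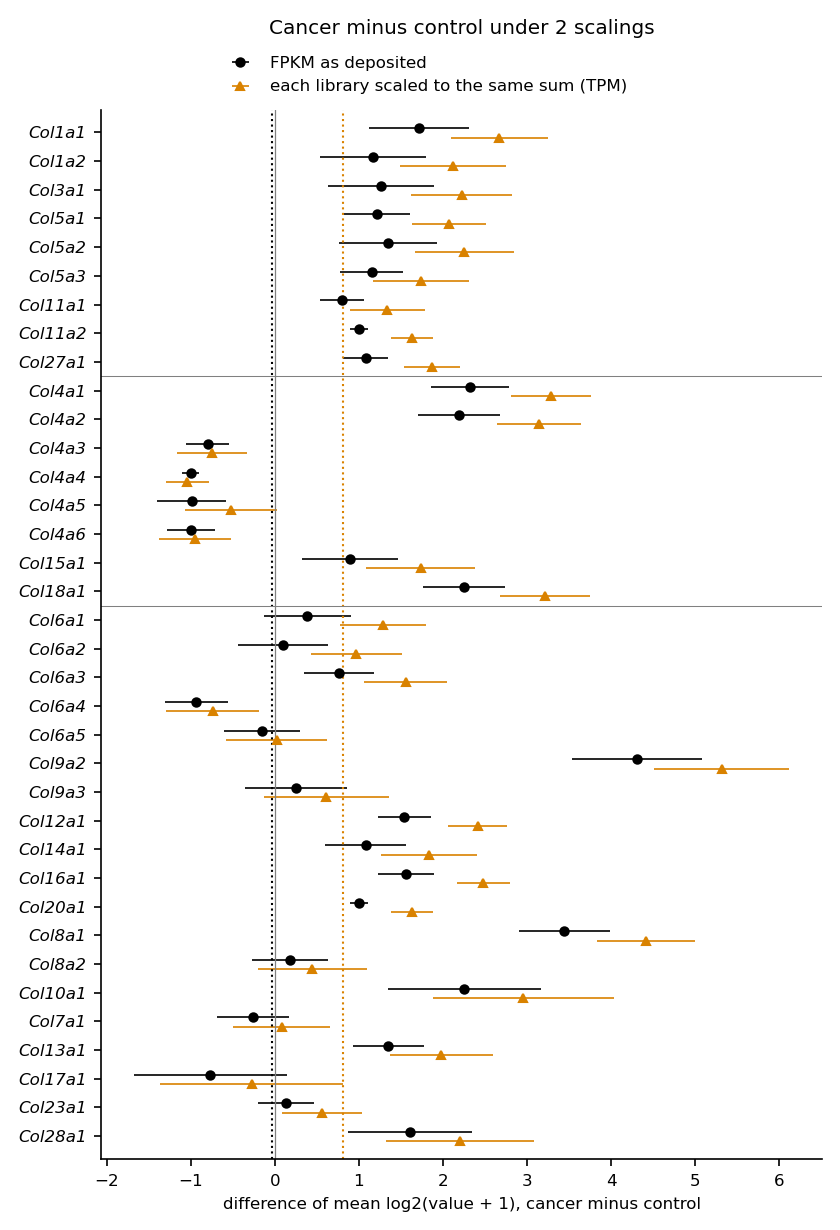
Difference of mean log2(value + 1), cancer minus control, with its standard error, for the 36 tested chains on deposited FPKM (black circles) and on TPM (orange triangles). Dotted lines mark the median of all 14357 genes on each scale, -0.04 and 0.81, and grey lines separate fibrillar, basement membrane and other chains from top to bottom.

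Among fibrillar collagens, the major chains had 4 cancers above all controls and cancer 5 among or below them. Col1a1, the α1 chain of type I collagen, had 43, 48, 81, 42 and 10 FPKM across the cancers against 9, 15 and 9 across the controls. Its log2 difference was 1.72 (standard error 0.59, adjusted p = 0.056 from limma), just short of the threshold, and without cancer 5 it was 2.17 (adjusted p = 0.0052 from limma). Col1a1 was also past the threshold with array weights, with a mean of at least 5 FPKM and after quantile normalization (adjusted p = 0.019, 0.043 and 0.0495 from limma). It missed the threshold without a filter, with a pseudocount of 0.1 and with the replicate block (adjusted p = 0.060, 0.060 and 0.053 from limma). Of the 8 fits that left out a sample, only 1, that without cancer 5, called it. Col1a2, the α2 chain of type I collagen, had 47, 47, 78, 40 and 9 FPKM against 14, 25 and 11. Col3a1, the chain of type III collagen, which accompanies type I in soft tissue, had 79, 79, 92, 67 and 13 FPKM against 26, 29 and 15. The log2 differences of these chains were 1.17 (standard error 0.63, adjusted p = 0.18 from limma) and 1.26 (standard error 0.63, adjusted p = 0.15 from limma). Without cancer 5 they were 1.64 and 1.76, both past the threshold (adjusted p = 0.015 and 0.0054 from limma). On the TPM scale all 3 chains were higher with every sample in, at 1.86, 1.31 and 1.41 above the median of all genes. By rank within its own library, Col3a1 stood above 95.3% to 97.2% of the genes listed in cancers 1 to 4, above 77.3% in cancer 5 and above 78.9% to 87.7% in the controls.

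The chains of types V and XI, minor partners that are built into type I and type II fibrils, were lower in level. Col5a1 had 5, 6, 8, 5 and 2 FPKM across the cancers against 1, 3 and 1 across the controls, with a log2 difference of 1.21 (standard error 0.39, adjusted p = 0.046 from limma). That call was kept in 2 of the 8 fits that left out a sample. It was lost with array weights, after quantile normalization and with the replicate block (adjusted p = 0.059, 0.10 and 0.080 from limma). Col5a2 had 12, 13, 23, 18 and 3 FPKM against 5, 6 and 2, with a log2 difference of 1.34 (standard error 0.58, adjusted p = 0.11 from limma), past the threshold without cancer 5 and with TPM (adjusted p = 0.016 and 0.013 from limma). In both, cancer 5 lay within the range of the controls. Col5a3 was listed at 2, 2, 2, 1 and 0 FPKM, Col11a1 at 1, 0, 1, 1 and 1 and Col11a2 at 1 in each cancer, and all 3 were listed at 0 in every control (adjusted p = 0.048, 0.045 and 0.0011 from limma). Col27a1, a short fibrillar chain, had 2, 2, 2, 3 and 3 FPKM against 0, 1 and 1 (log2 difference 1.08, standard error 0.27, adjusted p = 0.019 from limma). Col2a1, the chain of cartilage type II collagen, and Col24a1 were listed at 0 in all samples.

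In all, 5 of the 9 fibrillar chains tested were higher and 0 lower, where 16.2% of all genes were higher and 18.3% lower, and the median log2 difference was 1.17. Of the 5, Col5a3, Col11a1 and Col11a2 had no control above 0 and had to differ. With TPM all 9 were higher, where 50.0% of all genes were. Col27a1 was called whichever sample was left out, as was Col11a2, whose values of 1 and 0 leave no other outcome. Quantile normalization, a pseudocount of 0.1 and the replicate block each took Col27a1 short of the threshold (adjusted p = 0.091, 0.057 and 0.12 from limma). The count was 2 without cancer 1, 3 or 4 or control 1 or 3, 3 without cancer 2 or control 2, and 8 without cancer 5. Fibroblast markers (Pdgfra, Dcn, Lum, Dpt, Pdgfrb and Fbln1) summed to 71, 199, 95, 107 and 40 FPKM across the cancers against 112, 102 and 60 across the controls, with 1 of the 6 higher and 0 lower, near the 16.2% of all genes that were higher. Cancer 5 had the lowest sum of fibroblast markers as well as the lowest type I and type III chains. The part of these cells in the result was not tested.

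Of the 8 basement membrane chains, 3 were higher and 3 lower on FPKM, where 16.2% of all genes were higher and 18.3% lower. With TPM 4 were higher and 1 was lower (50.0% and 3.68% of all genes), and the 3 lower chains had no value above 2 FPKM. Col4a1 and Col4a2 encode the α1 and α2 chains found in nearly all basement membranes. Col4a1 had 62, 41, 56, 40 and 14 FPKM across the cancers against 5, 9 and 7 across the controls, a mean of 42.6 ± 18.6 (SD, n = 5) against 7 ± 2 (SD, n = 3). Col4a2 had 38, 27, 37, 26 and 8 FPKM against 3, 6 and 5, a mean of 27.2 ± 12.1 (SD, n = 5) against 4.67 ± 1.53 (SD, n = 3). Every cancer lay above every control for both genes. The log2 differences were 2.32 (standard error 0.46, adjusted p = 0.0091 from limma) for Col4a1 and 2.19 (standard error 0.49, adjusted p = 0.014 from limma) for Col4a2. The two-sided exact permutation test gave p = 0.018 for each, the smallest value that 56 splits into 5 and 3 allow. Without control 1 the adjusted p of Col4a2 was 0.062 from limma.

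Col18a1, the core protein of a heparan sulfate proteoglycan of basement membranes and the source of endostatin, had 69, 32, 41, 24 and 17 FPKM across the cancers against 7, 10 and 3 across the controls, again without overlap. Its log2 difference was 2.26 (standard error 0.49, adjusted p = 0.012 from limma). Col15a1, the other chain of this family, had 11, 6, 11, 6 and 1 FPKM against 2, 3 and 3 (log2 difference 0.90, standard error 0.57, adjusted p = 0.24 from limma). Col15a1 had 4 cancers above the controls and cancer 5 below them, and was past the threshold without cancer 5 (1.33, adjusted p = 0.015 from limma) and with TPM (adjusted p = 0.049 from limma).

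The remaining type IV chains, α3 to α6, form networks of restricted tissue distribution, and their levels were at most 4 FPKM. Col4a4 was listed at 0 in every cancer and at 1 in every control. It passed the filter through the controls alone, so its call (adjusted p = 0.0011 from limma) was built in. Col4a3 had 0, 0, 0, 1 and 0 FPKM against 1, 1 and 1, with a log2 difference of -0.80 (adjusted p = 0.045 from limma). Col4a6 had 0, 0, 0, 1 and 0 FPKM against 1, 2 and 1, with a log2 difference of -0.99 (adjusted p = 0.032 from limma). Col4a5 had 0, 2, 1, 3 and 1 FPKM against 3, 4 and 3, with a log2 difference of -0.99 that missed the threshold (adjusted p = 0.097 from limma). All 4 chains were at or near the rounding step. After quantile normalization all 4 were lower, where 1933 of 14357 genes were. Col4a5 was then at -1.34 (adjusted p = 0.037 from limma). With TPM the built-in difference of Col4a4 stayed past the threshold (adjusted p = 0.010 from limma). Col4a3 and Col4a6 were not past it (adjusted p = 0.15 and 0.090 from limma). Col4a3 and Col4a6 each lost their call when any sample other than cancer 4 was left out.

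Like Col4a1 and Col4a2, these genes lie in pairs transcribed away from each other, Col4a3 with Col4a4 on chromosome 1 and Col4a5 with Col4a6 on chromosome X, where 1308 bases separate the RefSeq genes. Within each pair the fitted differences had the same sign, higher in the cancers for Col4a1 and Col4a2 and lower for the other pairs. On FPKM Col4a5 was short of the threshold. The ratio of Col4a1 to Col4a2 stayed between 1.51 and 1.75 in the cancers and between 1.40 and 1.67 in the controls.

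Endothelial markers (Pecam1, Cdh5, Kdr, Tek and Emcn) summed to 50, 28, 34, 27 and 14 FPKM in cancers 1 to 5 and 8, 12 and 8 in the controls, with 3 of 5 higher and 0 lower, where 16.2% of all genes were higher and 18.3% lower. Pericyte markers (Rgs5, Cspg4, Abcc9 and Kcnj8) summed to between 16 and 49 against 6 to 15, with 1 of 4 higher, near that share. Cancer 1 was highest and cancer 5 lowest of the cancers both for Col4a1 and for the endothelial sum. Squamous markers (Krt5, Krt14, Krt13, Krt4, Trp63 and Krt15) had 1 of 6 lower, and summed to 0, 17, 304, 1627 and 478 in the cancers. The cancer highest in this sum, cancer 4, was the cancer in which Col4a3 and Col4a6 were above 0 and Col4a5 was highest. The part of vessels and of squamous epithelium in the type IV results was not tested.

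Among other collagens, Col9a2 and Col8a1 were listed at 0 in all controls. Both passed the filter through the cancers alone, so a difference was built in and their p-values are given only as output of the fit. Col9a2, a chain of the fibril-associated type IX collagen of cartilage, had 7, 11, 61, 8 and 56 FPKM in the cancers (adjusted p = 0.0064 from limma). Col8a1, which forms hexagonal networks and is found around vessels and in Descemet's membrane of the eye, had 5, 4, 12, 13 and 27 FPKM (adjusted p = 0.0040 from limma). All 5 cancers were above 0 for both genes, and no fold is given because the controls were listed at 0. Cancer 5, low in fibrillar chains, was the highest cancer for Col8a1 and close to the highest for Col9a2. Col9a1 was listed at 0 in all samples and Col9a3 had 0 to 5 FPKM across the cancers against 0 to 1 across the controls, and neither partner chain of type IX was past the threshold. Col8a2 had 0 to 2 FPKM across the cancers against 0 to 1 across the controls.

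Col10a1, the chain of type X collagen of hypertrophic cartilage, had 5, 1, 11, 16 and 0 FPKM in the cancers and was listed at 0 in the controls (adjusted p = 0.088 from limma). Col10a1 passed the filter through the cancers alone, so a difference was built in. Without cancer 5, the cancer listed at 0, Col10a1 was past the threshold (adjusted p = 0.029 from limma), given only as output of the fit. It lies within Nt5dc1, transcribed from the other strand, and 18 of its exonic bases are shared. The labels name a directional library kit and the study's methods an Illumina TruSeq library, and whether the counting used strand is not given in the sources used here, so reads of the genes may not be told apart where they overlap. Nt5dc1 itself had 5 to 6 FPKM across the cancers against 10 to 14 across the controls. Of the cartilage markers, Acan, Matn1, Matn3 and Comp were listed at 0 in all samples, and Hapln1 had 0 to 7 FPKM across the cancers against 0 across the controls.

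Fibril-associated chains, which lie on the surface of fibrils or link them to other matrix, had 4 of 6 tested chains higher, where 16.2% of all genes were higher. Of these 4, Col9a2 and Col20a1 had no control above 0 and passed the filter through the cancers alone. Col12a1 had 3, 5, 9, 6 and 3 FPKM in the cancers and 1 in each control (log2 difference 1.54, standard error 0.31, adjusted p = 0.010 from limma). Col16a1 had 5, 14, 8, 10 and 15 FPKM against 2, 3 and 3 (log2 difference 1.56, standard error 0.33, adjusted p = 0.012 from limma). Every cancer exceeded every control for both, and cancer 5 was the highest for Col16a1. Without control 1 the adjusted p of Col16a1 was 0.053 from limma. Col14a1, a relative of Col12a1, had 5, 5, 2, 1 and 1 FPKM against 0, 1 and 1 and did not pass (adjusted p = 0.11 from limma). Col20a1 was listed at 1 in each cancer and 0 in each control (adjusted p = 0.0011 from limma). Col13a1, a transmembrane chain, had 2, 2, 3, 2 and 0 FPKM against 0 in the controls (adjusted p = 0.042 from limma), a call that held with 1 sample left out only when that sample was cancer 5.

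Type VI collagen has chains that form beaded filaments in most connective tissue, and on FPKM 0 of its 5 tested chains passed the threshold, where 16.2% of all genes were higher and 18.3% lower, which for so few chains is not far from these shares. With TPM 1 of the 5 was higher, against 50.0% of all genes. Col6a1 had 13, 19, 12, 11 and 3 FPKM across the cancers against 7, 12 and 5 across the controls (log2 difference 0.39, standard error 0.51, adjusted p = 0.58 from limma). Col6a2 had 10, 16, 9, 9 and 2 FPKM against 7, 11 and 5 (log2 difference 0.10, standard error 0.53, adjusted p = 0.90 from limma). With TPM they lay 0.48 and 0.16 above the median of all genes. Col6a3 was higher with TPM (1.56, adjusted p = 0.028 from limma) and without cancer 5 (1.04, adjusted p = 0.043 from limma), and Col6a4 was lower after quantile normalization (adjusted p = 0.049 from limma). Col6a3 had 1 to 5 FPKM across the cancers against 1 to 3 across the controls, Col6a4 0 to 1 and 1 to 3, and Col6a5 0 to 2 and 0 to 1. As a share of the collagen FPKM of the same library, Col6a1 took 1.49% to 4.77% in the cancers and 5.68% to 7.59% in the controls, and Col6a2 took 0.995% to 4.02% and 5.68% to 6.96%. Every cancer was below every control in both shares, which do not depend on the scaling of libraries.

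Col17a1, a hemidesmosome chain of basal keratinocytes, had 0, 0, 5, 14 and 3 FPKM across the cancers against 3, 6 and 5 across the controls (log2 difference -0.77, standard error 0.91, adjusted p = 0.53 from limma). Squamous markers of the same samples summed to 0, 17, 304, 1627 and 478 FPKM across the cancers against 1548, 2586 and 2359 across the controls. Cancers 1 and 2 were lowest and cancer 4 highest of the cancers in both, whereas cancer 5 had less Col17a1 than cancer 3 with a higher sum. The controls, with sums near or above that of cancer 4, had less Col17a1 than it. The members of the sum differed here. Krt5, Krt14, Trp63 and Krt15 had 574, 403, 21 and 39 FPKM in cancer 4 against at most 203, 143, 11 and 15 in the controls. Krt13 and Krt4 had 494 and 96 in cancer 4 against at least 961 and 337. The part of squamous cells in the Col17a1 values was not tested. Col28a1 had 0 to 10 FPKM in the cancers and was listed at 0 in the controls (adjusted p = 0.12 from limma). Col7a1, of the anchoring fibrils, and Col23a1 had 0 to 1 in the cancers and at most 2 in the controls. Col22a1 and Col25a1 were listed at 1 FPKM in cancer 5 and at 0 elsewhere, and Col6a6, Col19a1 and Col26a1 at 0 in all samples. In all, 6 of the 19 other chains tested were higher and 0 lower, where 16.2% of all genes were higher and 18.3% lower. Of the 6, Col8a1, Col9a2, Col13a1 and Col20a1 had no control above 0 and had to differ, which leaves Col12a1 and Col16a1, a share near that of all genes. The median log2 difference of 0.77 likewise includes chains that had to differ. With TPM 9 were higher, Col6a3, Col10a1 and Col14a1 among them, a share close to the 50.0% of all genes.

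Within each library the classes took similar shares except in cancers 1 and 5. Fibrillar chains took 44.3%, 49.7%, 49.6%, 45.8% and 20.9% of collagen FPKM in cancers 1 to 5 and 52.9%, 50.0% and 44.3% in the controls. Basement membrane chains took 41.6%, 27.1%, 25.1%, 26.0% and 20.4% against 22.1%, 22.8% and 27.3%. Other chains took 14.1%, 23.1%, 25.3%, 28.3% and 58.7% against 25.0%, 27.2% and 28.4%. The shares of each class overlapped between groups. Cancer 1 stood out by basement membrane chains, with Col18a1 and Col4a1 next in level after Col3a1. Cancer 5 stood out by Col8a1 and Col9a2, which together took 41.3% of its collagen FPKM and 2.77% to 12.6% in the other cancers. Col3a1 was the most abundant chain in every sample but cancer 5, where it was Col9a2.

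**Figure D3:**
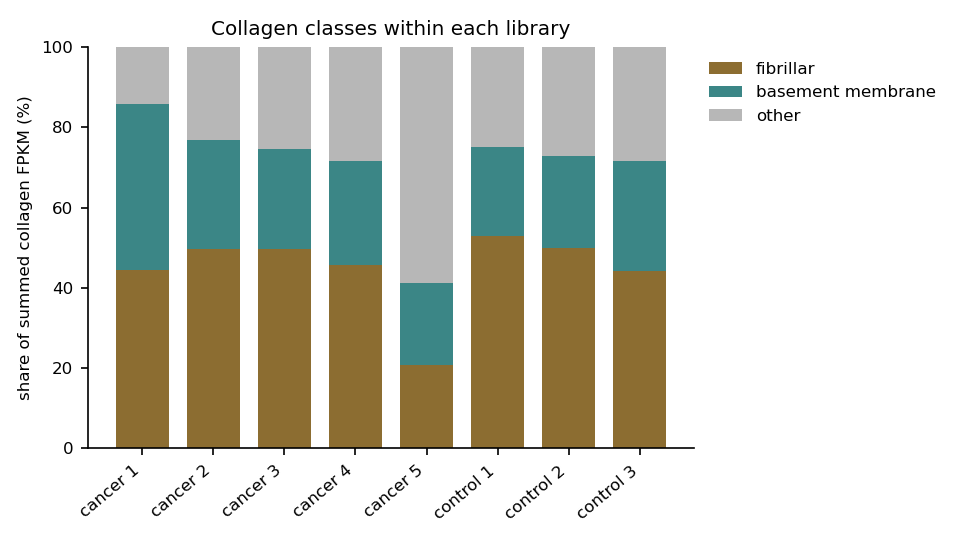
Share of the summed collagen FPKM (%) taken by fibrillar (brown), basement membrane (teal) and other (grey) chains in each of the 8 libraries, 1 stacked bar per library. Fibrillar chains take 44.3% to 52.9% in every library but cancer 5, where they take 20.9%.

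Ratios between chains of 1 library do not depend on how libraries were scaled. The ratio of Col1a1 to Col1a2 was 0.915, 1.02, 1.04, 1.05 and 1.11 in cancers 1 to 5 and 0.643, 0.600 and 0.818 in controls 1 to 3. Cancer 5 lay with the other cancers here, although its levels of both chains lay within or below the range of the controls. The groups did not overlap as listed, but the rounding of FPKM allows 0.895 for the lowest cancer and 0.905 for the highest control. The ratio of Col6a1 to Col6a2 ran from 1.19 to 1.5 against 1 to 1.09, also with overlap once rounding is allowed for. The ratio of Col4a1 to Col1a1, basement membrane to fibril, was 1.44, 0.854, 0.691, 0.952 and 1.40 in the cancers as against 0.556, 0.600 and 0.778 in the controls, and cancer 3 lay among the controls.

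**Figure D4:**
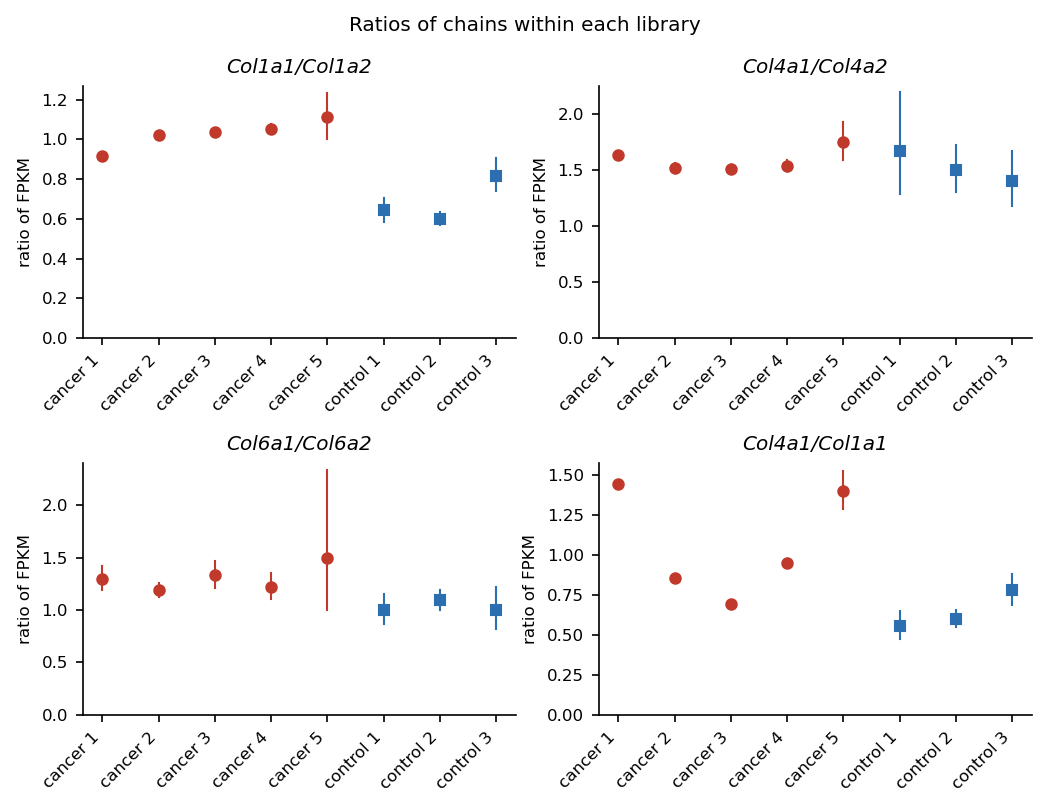
Ratios of FPKM between pairs of chains within each library, with cancers as red circles and controls as blue squares, and vertical lines showing the range that rounding to whole FPKM allows. The ratio of Col1a1 to Col1a2 was 0.915 or above in each cancer and 0.818 or below in each control, while that of Col4a1 to Col4a2 overlapped between groups.

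Genes that modify, export and cross-link collagen were examined as a list of 32, of which 27 were tested. On FPKM 12 were higher and 0 lower, where 16.2% of all genes were higher and 18.3% lower. With TPM 20 were higher, where 50.0% of all genes were. Glt25d2, among the 12, had no control above 0 and passed the filter through the cancers alone. Lepre1, a prolyl 3-hydroxylase, had 13, 4, 11, 5 and 8 FPKM across the cancers against 1, 1 and 0 across the controls (log2 difference 2.43, standard error 0.41, adjusted p = 0.0052 from limma). Bmp1, which removes the C-terminal propeptide of fibrillar procollagens, had 13, 10, 12, 8 and 7 FPKM against 1, 2 and 2 (log2 difference 2.04, standard error 0.24, adjusted p = 0.0017 from limma). P4ha1, a catalytic subunit of prolyl 4-hydroxylase, had 30, 8, 25, 17 and 11 FPKM against 4, 4 and 3 (log2 difference 1.90, standard error 0.41, adjusted p = 0.012 from limma). Plod3, a lysyl hydroxylase and glycosyltransferase, had 68, 31, 60, 35 and 30 FPKM against 15, 11 and 11 (log2 difference 1.71, standard error 0.31, adjusted p = 0.0069 from limma). In all 4 genes every cancer lay above every control, cancer 5 included, as in 10 genes of the list, where 14.4% of all genes did. P4hb, also of prolyl hydroxylation, was the 1 gene of the list with every cancer below every control, against 19.8% of all genes. It had 429, 469, 390, 402 and 472 FPKM against 631, 502 and 564 (log2 difference -0.38, standard error 0.17, adjusted p = 0.10 from limma). With TPM the P4hb difference was 0.59 (adjusted p = 0.032 from limma), below the median of all genes. P4ha1 just missed the threshold in 1 of the 8 fits without a sample, with an adjusted p of 0.0504 from limma.

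Of the lysyl oxidases, 3 of the 4 tested were higher, where 16.2% of all genes were, and after quantile normalization Lox alone was. Lox had 4, 5, 10, 11 and 3 FPKM in the cancers and 1 in each control (log2 difference 1.79, standard error 0.38, adjusted p = 0.012 from limma). Loxl1 had 3, 7, 9, 11 and 2 FPKM against 1 in each control (log2 difference 1.70, standard error 0.47, adjusted p = 0.027 from limma), a call kept in 3 of the 8 fits that left out a sample. By contrast Serpinh1, which encodes the collagen chaperone HSP47, had 23, 36, 26, 53 and 10 FPKM against 45, 36 and 39 (log2 difference -0.60, standard error 0.46, adjusted p = 0.33 from limma). The Serpinh1 difference was 0.35 with TPM, which is below the median of all genes on that scale. Cancer 5 was lowest for Serpinh1, as it was for the major fibrillar chains.

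**Figure D5:**
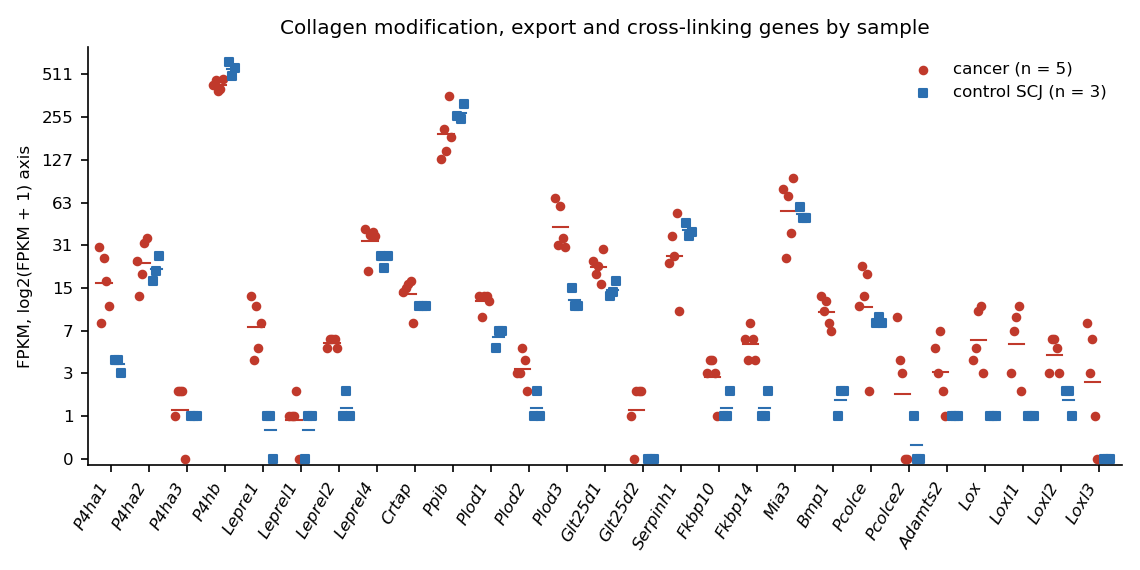
FPKM of the 27 tested genes of collagen modification, export and cross-linking in 5 cancers (red circles, cancers 1 to 5 from left to right) and 3 control SCJ samples (blue squares), on a log2(FPKM + 1) axis with a bar at the mean of the plotted log2 values. Lepre1, Bmp1, P4ha1 and Plod3 have every cancer above every control, whereas Serpinh1 overlaps.

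Of 10 collagen receptor genes, 7 were tested and 1 was higher on FPKM (6 with TPM), against the same shares of all genes. Lair1, an inhibitory receptor of leukocytes that binds collagen, had 1, 1, 3, 1 and 1 FPKM across the cancers against 0 across the controls, so it passed the filter through the cancers alone and its call (adjusted p = 0.012 from limma) was built in. Macrophage markers had 1 of 3 higher, where 16.2% of all genes were, and 0 of 3 after quantile normalization. They summed to between 9 and 27 FPKM against 8 in each control. Itgb1, the β1 integrin subunit, had 101, 97, 109, 88 and 109 FPKM against 111, 85 and 63 (log2 difference 0.25, standard error 0.19, adjusted p = 0.32 from limma). Other scalings made Itgb1 a call, TPM at 1.22 (adjusted p = 0.0053 from limma) and quantile normalization at 0.76 (adjusted p = 0.038 from limma). Ddr1, a receptor tyrosine kinase of epithelia activated by collagen, had 41, 40, 44, 34 and 45 FPKM against 49, 38 and 52 (log2 difference -0.17, adjusted p = 0.38 from limma), and with TPM its difference was 0.79, past the threshold (adjusted p = 0.017 from limma) but close to the median of all genes. Ddr2, its relative in mesenchymal cells, had 2, 4, 2, 2 and 1 FPKM against 2, 3 and 1 (log2 difference 0.09, adjusted p = 0.85 from limma).

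Smooth muscle markers summed to 43 to 1692 FPKM across the cancers against 355 to 549 across the controls. Of the 6 markers 0 were called, where 16.2% of all genes were higher and 18.3% lower, and a count of 0 among so few is not far from these shares.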

How the data were processed

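RNA of 5 SCJ cancers and 3 control SCJ samples was sequenced from polyA+ libraries, made with a directional kit per the labels, whereas the study's methods name Illumina TruSeq. The authors trimmed reads with cutadapt 1.8 and quantified UCSC mm10 genes with cuffquant and cuffnorm 2.2.1, and the submitters' processing notes also name TopHat2 2.0.13. The deposited values are FPKM rounded to whole numbers and were treated as a score, not as read counts. Read numbers are not given, so no counting intervals are stated.

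Samples were grouped by their titles. Genes that reached 1 FPKM in 3 or more samples were compared on the log2(FPKM + 1) scale, which understates differences of low genes. The test was limma 3.58.1 in R 4.3.3 (lmFit, then eBayes with a mean trend), with Benjamini-Hochberg adjustment over all these genes. Single genes were also compared by exact permutation over samples. Controls came from separate stomachs, but whether any tumors shared a mouse is not given in the sources used here, so p-values measure the spread between these samples.

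Members and lists were chosen with earlier results of these data known. Values in every sample are given for chains past the threshold or with a mean of at least 10 FPKM in a group, and other chains by their range, apart from Col4a5, Col6a2, Col10a1, Col14a1, Col15a1 and Col17a1, which were added after their values were seen. The rule named up to 6 biosynthesis and 4 receptor genes with the largest differences past the threshold, which Lair1 alone of the receptors passed, and Serpinh1, Lox, Itgb1, Ddr1 and Ddr2 whatever their values. P4hb, Pgc and the squamous markers given singly were added after their values were seen. Alternatives were TPM, quantile normalization, a pseudocount of 0.1, no filter, a mean of at least 5 FPKM, array weights, a replicate block and leaving out each sample. One marker list is not reported here.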

Additional observations from a re-analysis of the deposited data

Results flagged for a closer look

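In each group of 5 cancers, 26 collagen values were examined for 1 sample far from the other 4, by the gap to its nearest neighbour as a share of the whole range. A gap beyond the 95% limit was found for 4 of them. That limit passes about 1 in 20 by chance for values on a continuous scale. Many of these values are whole-number FPKM, so the count cannot be set against that rate. Fibrillar chains took 20.9% of the collagen FPKM of cancer 5 and 44.3% to 49.7% in the other cancers, a gap of 0.813 of the range. Col11a1 in cancer 2 was listed at 0 FPKM and at 1 in the other cancers, a gap of 1. Col4a3 and Col4a6 in cancer 4 were listed at 1 FPKM and at 0 in the other cancers, each a gap of 1. The last 3 are single steps of the rounding.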

How the results depend on the processing

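The 14 higher and 3 lower collagen chains became 22 and 1 with TPM, 16 and 5 with array weights, 7 and 0 with a mean of at least 5 FPKM, 11 and 2 without a filter, 13 and 3 with a pseudocount of 0.1 and 11 and 5 after quantile normalization. Fibrillar chains higher were 5, and 9 with TPM, 1 with a mean of at least 5 FPKM, 2 without a filter and 2 after quantile normalization. Basement membrane chains higher stayed within 2 to 4. Other chains higher were 6, 9 with TPM and 3 with a mean of at least 5 FPKM, and other chains lower were 0, 1 with array weights and 1 after quantile normalization. Collagen biosynthesis genes higher were 12, 20 with TPM, 17 with array weights, 9 after quantile normalization and 5 with a mean of at least 5 FPKM. Over all genes, 2326 were higher and 2622 lower, 7176 and 528 with TPM, 3909 and 4239 with array weights and 1244 with a mean of at least 5 FPKM.

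With 1 sample left out, collagen chains higher ran from 8 to 20 and lower from 1 to 4, fibrillar chains higher from 2 to 8, basement membrane chains higher from 2 to 4, other chains higher from 4 to 8, biosynthesis genes higher from 7 to 16 and lower from 0 to 1, and all genes higher from 1362 to 2459 and lower from 1186 to 2773.

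The replicate numbers do not pair the samples, as deviations of same-numbered samples correlated at -0.02, -0.19 and -0.10. The replicate block gave 7 collagen chains higher and 3 lower (10 called with and without it), 2 fibrillar, 2 basement membrane and 3 other chains higher, 6 biosynthesis genes higher, and 982 genes higher and 552 lower.

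Among 33 named genes, 385 values under alternatives kept both sign and call, 74 lost the threshold, 13 passed it and 8 changed sign, 0 of these past the threshold before and Ddr1 with TPM past it afterwards (adjusted p = 0.017 from limma). Serpinh1 had 0.35 with TPM. Ddr1 had 0.79 with TPM, 0.018 with array weights and 0.27 after quantile normalization. Ddr2 had -0.24 with array weights, -0.31 after quantile normalization, and from -0.18 (without control 3; -0.090 without cancer 2) to 0.32 with 1 sample left out. Which scaling is right cannot be read from FPKM. Rounding to whole FPKM leaves few steps to the 9 called chains with no value above 3 FPKM, and what caused these changes was not tested.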
